A study of Mus musculus with 30 samples.

Results

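The RNAs described here are 5 mouse long noncoding RNAs that act in the nucleus or carry small nucleolar RNAs (snoRNAs) in their introns: Malat1, Neat1, Gas5, Snhg1 and Kcnq1ot1. They were found by gene symbol among 46078 genes, after Ensembl identifiers had been paired with symbols for 45143 of them. Of the 5, 4 had a row in the table. Snhg1 matched no row and was not analysed as a gene. The set was chosen by measured values, since Malat1 and Neat1 were picked because they followed different courses over the cell cycle in these same libraries. Their ratios between phases are therefore given as descriptions, with no test.

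The cells were C2C12, an established line of mouse myoblasts, the precursors of muscle fibres, kept growing in 20% serum. All groups were untreated cells of this 1 line, sorted by DNA content after 15 minutes in Hoechst, a dye that binds DNA, as G1, S or G2/M cells. RNA-seq of total RNA, which the authors named mRNA-seq when depositing the counts, gave 6 columns of fragment counts, 2 for each of the 3 phases. The other 24 samples, ChIP-seq of 5 histone marks with inputs, are not analysed here.

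Malat1 gathers in nuclear speckles, bodies rich in splicing factors, and its 3′ end is made by RNase P cleavage rather than by polyadenylation. Neat1 is the scaffold on which paraspeckles form, and its short and long forms share a start. Gas5 and Snhg1 are hosts of snoRNAs: the introns yield guides for chemical modification of ribosomal RNA, while the spliced exons carry little coding potential and are degraded by nonsense-mediated decay when translated. Their starts often hold a run of pyrimidines, a feature shared with ribosomal protein genes. Kcnq1ot1 is transcribed from the paternal chromosome, antisense to Kcnq1, and silences neighbouring genes in cis.

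The start regions of the members are shown first, because the pyrimidine run at the start is the feature that snoRNA hosts are known for. Each window runs 5′ to 3′ and covers 20 bases before and 40 bases from a start annotated in RefSeq on GRCm38.p6. Capitals mark the longest run of C or T within 10 bases of the start. Of the 5 members, 4 had an entry, Neat1 had none, and Gas5 had a pair, both of which are printed.
Gas5 first start: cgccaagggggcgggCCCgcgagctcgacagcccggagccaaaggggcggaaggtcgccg
Gas5 second start: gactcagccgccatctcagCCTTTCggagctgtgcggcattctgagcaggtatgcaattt
Snhg1: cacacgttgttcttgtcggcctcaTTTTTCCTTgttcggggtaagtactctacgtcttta
Malat1: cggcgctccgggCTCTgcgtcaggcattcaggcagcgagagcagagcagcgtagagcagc
Kcnq1ot1: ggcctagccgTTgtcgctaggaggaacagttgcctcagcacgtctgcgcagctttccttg

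The Gas5 windows lie at chr1:161034581-161034640 and chr1:161035146-161035205 on the plus strand, and the Snhg1 window at chr19:8723467-8723526 on the plus strand. The Malat1 window lies at chr19:5802633-5802692 and the Kcnq1ot1 window at chr7:143296508-143296567, both on the minus strand. The run was 9 bases long in Snhg1, 3 and 6 in the Gas5 starts, 4 in Malat1 and 2 in Kcnq1ot1. Of the members, Snhg1 alone reached the 7 bases used to count a run. A run of 7 or more was present in 20.2% of 32851 RefSeq start regions, in 46.1% of 76 regions of cytosolic ribosomal protein genes and in 8 of 20 regions of snoRNA hosts (Gas5 and Snhg1 included). With a run of 6 or more, a length tried after the members' runs had been seen and which takes in the second Gas5 start, the shares were 30.0%, 51.3% and 55.0%. Over the 300 bases of each region, the palindrome TGACGTCA, the cyclic AMP response element, occurred once in the second Gas5 region and in no other member's, against 1.79% of all regions, 2 of the 20 of snoRNA hosts and 6.58% of those of ribosomal protein genes. These matches describe letters and not binding.

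Each column held between 16109055 and 18103769 fragments. In the titles, columns of 1 phase are numbered replicates, but no separate cultures are named, and they differed by little more than counting noise (chi-square over degrees of freedom 1.002 for G1, 1.03 for S, 1.153 for G2/M). By that chi-square test the small excess passed counting error in G2/M (p = 3.11e-28) and in S (p = 0.0109). Counting intervals with G2/M thus do not cover all the variation between its columns. The columns were summed to 1 library per phase, so there is no replicate check on any ratio, and every 95% interval covers counting error only. Levels are fragment counts scaled to library size (CPM) adjusted with TMM factors of 0.9895 to 1.01, and "per kb" divides a level by exon length. A level is a share of a library, so fewer cells with the RNA and less RNA per cell cannot be told apart. A lot mark stands in the S titles alone, and for ratios with S the lot and the phase cannot be told apart. Of 6 G1/S genes, 6 were at least 2-fold lower in S than in G1, among them Cdc6, which loads the replicative helicase, at 140.3, 11.22 and 24.21 CPM in G1, S and G2/M. Ccnb1, the mitotic cyclin, stood at 74.31, 242.4 and 390.3 CPM. Summed myoblast markers, 9 of 12 above 10 CPM, were 1051, 1088 and 1076 CPM. Of 14 myotube markers 1 passed 10 CPM and 4 were at 0 in all libraries, with summed levels of 22.3, 2.929 and 23.41 CPM. Of 20 markers of other cell types 1 passed, Tubb3, and 12 were at 0, with summed levels of 261.2, 133.8 and 254.8 CPM. The part of these markers in the results below was not tested.

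**Figure D1:**
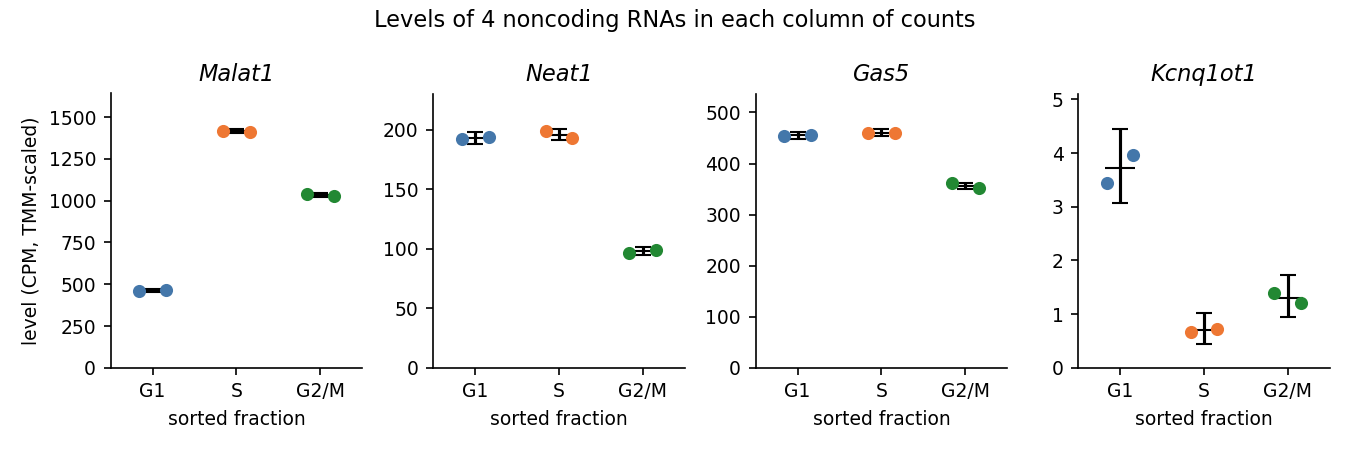
Level in TMM-scaled CPM (y axis, from 0) of Malat1, Neat1, Gas5 and Kcnq1ot1 in the sorted fractions (x axis). Points are the columns of counts, and bars the library level with its exact 95% Poisson interval. Malat1 was lowest in G1, Neat1 and Gas5 were lowest in G2/M, and Kcnq1ot1 was highest in G1.

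Malat1 was the most variable of the abundant members, low in G1 and high in S. Malat1 (ENSMUSG00000092341) is a single exon block of 6983 bases at chr19:5795690-5802672 on the minus strand of GRCm38. Its columns held 7303 and 7492 fragments in G1, 25213 and 25494 in S, and 18734 and 18754 in G2/M. In CPM these were 458.2 and 464.9, then 1417 and 1412, then 1042 and 1026. The columns of each phase lay close together and no phase overlapped another. The library levels were 461.5 CPM in G1 (454.1 to 469.0), 1415 CPM in S (1402 to 1427) and 1034 CPM in G2/M (1023 to 1044). By level Malat1 ranked 336, 57 and 92 among all genes of the G1, S and G2/M libraries.

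Malat1 was 3.065-fold higher in S than in G1, a log2 ratio of 1.62 (1.59 to 1.64). From S to G2/M the ratio was 1.369-fold lower, a log2 ratio of -0.45 (-0.47 to -0.43). G2/M stood 2.24-fold above G1, a log2 ratio of 1.16 (1.14 to 1.19). Among genes whose mean level reached 50 CPM, the share with a larger ratio in size than Malat1 was 0.6867% of 4223 in S over G1, 25.55% of 4212 in G2/M over S and 4.121% of 4222 in G2/M over G1.

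Neat1 was level between G1 and S and about 2-fold lower in G2/M. Neat1 (ENSMUSG00000092274) is a single block of 20771 bases at chr19:5824708-5845478, on the same strand as Malat1 and 22035 bases away. Its columns held 3063 and 3135 fragments in G1, 3541 and 3483 in S, and 1742 and 1813 in G2/M. In CPM these were 192.2 and 194.5, then 199.0 and 192.9, then 96.87 and 99.15. The G1 and S columns overlapped, and both G2/M columns lay below them.

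The Neat1 ratio of S over G1 was 0.02 on the log2 scale (-0.03 to 0.07), an interval that includes no difference, and it was -0.012 from the second columns alone. G2/M over S was -0.999 (-1.06 to -0.94), a 1.999-fold lower level that falls just short of the 2-fold line, and 2.398% of genes at 50 CPM or more had a larger ratio. G2/M over G1 was -0.98 (-1.04 to -0.92), 1.973-fold lower, and 7.011% of such genes had a larger ratio. From the first columns alone G2/M over S was -1.044, past the 2-fold line, and from the second columns alone it was -0.964. The single block does not separate the short form of Neat1 from the long one.

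The ratio of the neighbours Malat1 and Neat1 within a library needs no scaling between libraries. Per kb, Malat1 exceeded Neat1 by 7.1 times in G1 (6.892 to 7.315), 21.47 times in S (20.94 to 22.02) and 31.37 times in G2/M (30.31 to 32.47). These intervals did not overlap. The size of each ratio depends on the exon lengths, where the Neat1 block joins the short and long forms. Its change between libraries does not. Between G1 and S the levels of Neat1 overlapped and those of Malat1 did not, and in G2/M both levels were lower than in S, Neat1 by more.

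Gas5, the snoRNA host with a row, moved least. Gas5 (ENSMUSG00000053332) spans chr1:161034422-161038539 on the plus strand, with 3760 exon bases in 3 blocks. Its columns held 7251 and 7343 fragments in G1, 8188 and 8301 in S, and 6506 and 6427 in G2/M. In CPM these were 454.9 and 455.6, then 460.2 and 459.9, then 361.8 and 351.5. The G1 and S columns lay within a few CPM of each other, and both G2/M columns lay below. S over G1 was 0.01 on the log2 scale (-0.02 to 0.05). G2/M over S was -0.37 (-0.40 to -0.33), 1.29-fold lower, a size that 34.95% of genes at 50 CPM or more exceeded. G2/M over G1 was -0.35 (-0.39 to -0.32), 1.277-fold lower, a size that 45.26% exceeded.

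Per kb of annotated exon length, the order of the abundant members changed between libraries. In G1 Gas5 led with 121.1 CPM per kb, followed by Malat1 with 66.09 and Neat1 with 9.309. In S Malat1 led with 202.6 CPM per kb, ahead of Gas5 with 122.4 and Neat1 with 9.435. In G2/M the levels were 148.0 for Malat1, 94.84 for Gas5 and 4.719 for Neat1. Neighbours in each order stood apart by more than their counting intervals. The 3760 exon bases of Gas5 take in its intronic snoRNA genes, so they exceed the spliced RNA. The Neat1 block joins its short and long forms. The order per kb therefore holds for these lengths alone. The change of a ratio between libraries does not depend on them.

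Kcnq1ot1 was scarce and highest in G1. Kcnq1ot1 (ENSMUSG00000101609) is a single block of 84395 bases at chr7:143212155-143296549 on the minus strand. Its columns held 55 and 64 fragments in G1, 12 and 13 in S, and 25 and 22 in G2/M. The columns of different phases did not overlap, but the counts are small. The levels were 3.712 CPM in G1 (3.075 to 4.442), 0.6975 CPM in S (0.4514 to 1.03) and 1.296 CPM in G2/M (0.9522 to 1.723). S over G1 was -2.41 on the log2 scale (-3.10 to -1.78), 5.322-fold lower, and G2/M over G1 was -1.52 (-2.04 to -1.02), 2.865-fold lower. G2/M over S was 0.89 (0.16 to 1.66), and the level intervals of S and G2/M overlap. From single columns that ratio was 0.74 (-0.32 to 1.85) and 1.04 (-0.01 to 2.17), so it is within counting error there.

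Ratios past 2-fold were common at such levels. Among genes with a mean of 1 to 5 CPM, 78.5% of 1927 were at least 2-fold apart in S over G1, 75.4% of 1954 in G2/M over S, and 82.9% of 1913 in G2/M over G1. Kcnq1ot1 did not reach 10 CPM in any library and is left out of the counts that follow.

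Of the 3 members that reached 10 CPM, 1 was at least 2-fold apart in S over G1 (Malat1), 0 in G2/M over S, and 1 in G2/M over G1 (Malat1). Since the members were chosen on these ratios, the background is printed without a reading: 17.2% of 8773 genes were 2-fold apart in S over G1, 13.7% of 8752 in G2/M over S, and 19.9% of 8850 in G2/M over G1. Where the mean level reached 50 CPM the shares were 5.21% of 4223, 2.35% of 4212 and 6.54% of 4222. Just inside and just outside the 2-fold line stood Malat1 in G2/M over G1, at 2.24-fold, and Neat1 in G2/M over S, at 1.999-fold.

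**Figure D2:**
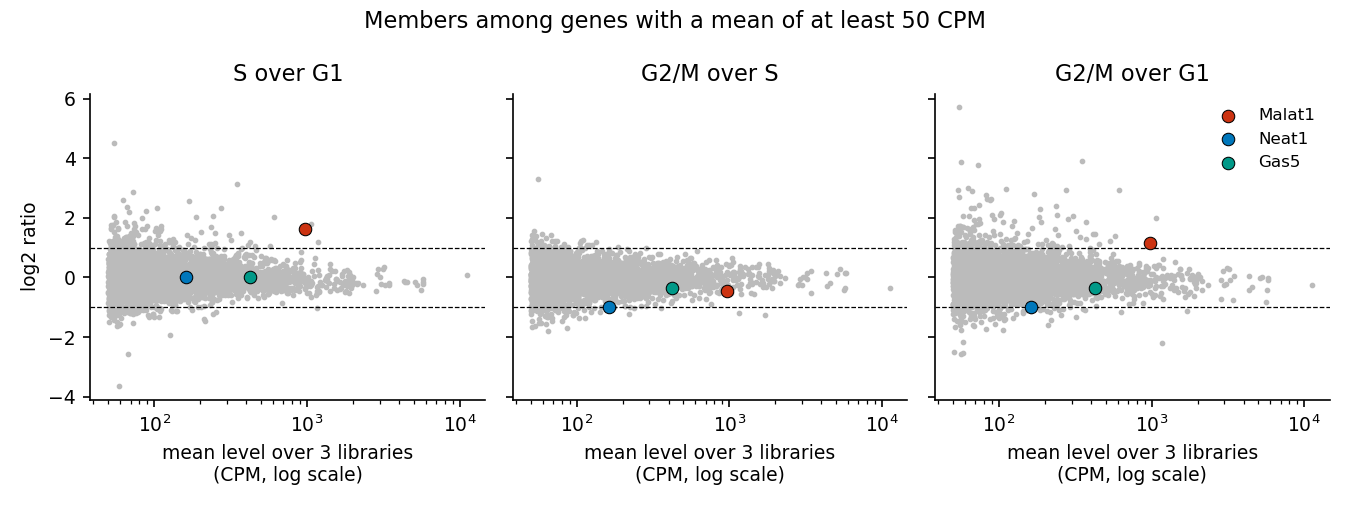
Log2 ratio (y axis) against mean level over the 3 libraries in CPM (x axis, log scale) for genes whose mean level reached 50 CPM, in grey, with Malat1, Neat1 and Gas5 in colour. Dashed lines mark 2-fold. Malat1 stood at 1.62 in S over G1, and Neat1 at -0.999 in G2/M over S.

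Exon length moved with the ratios among genes whose mean level reached 50 CPM, the only ones in this paragraph. In S over G1 the median log2 ratio was -0.20 for the 1061 of them with at most 2958 exon bases and 0.25 for the 1060 with more than 7130. Malat1, at 1.62, stood beside a median of 0.15 for the 869 genes within 20% of its length, of which 5.063% were 2-fold apart. Neat1, at 0.02, stood beside a median of 0.48 for the 69 genes within 20% of its length. Gas5, at 0.01, stood beside -0.06 for 988 genes. In G2/M over S the medians for these length neighbours were -0.05, -0.09 and 0.01. The part of length in the members' ratios was not tested.

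**Figure D3:**
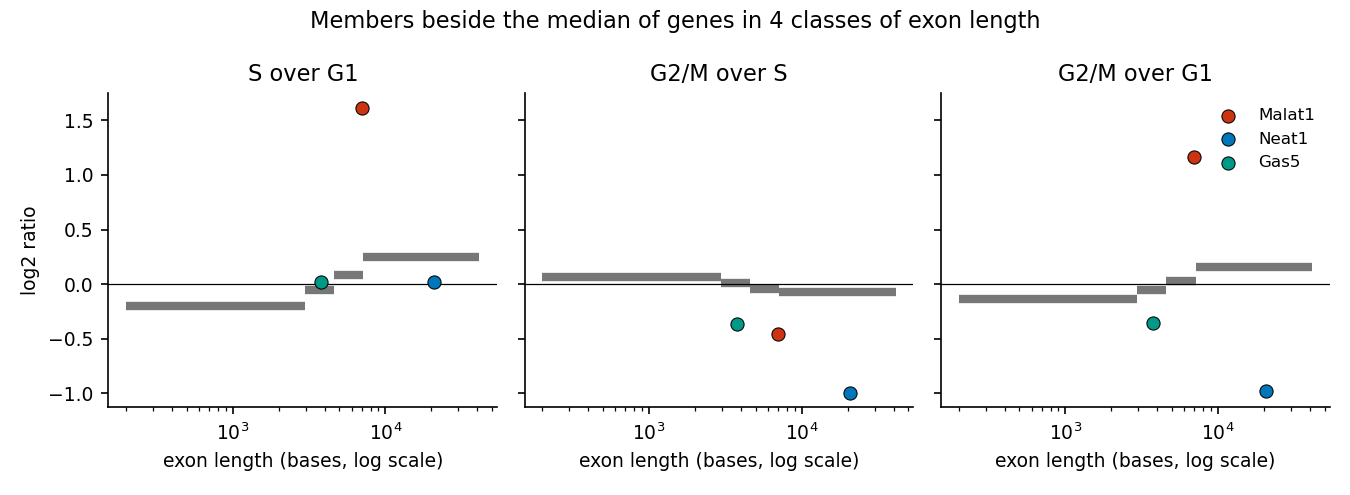
Log2 ratio (y axis) against exon length in bases (x axis, log scale). Grey bars are the medians of genes at a mean level of 50 CPM or more in 4 classes of exon length, and points are Malat1, Neat1 and Gas5. In S over G1 the class medians ran from -0.20 for the shortest to 0.25 for the longest, and Malat1 lay above all of them at 1.62.

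Genes annotated inside the members limit what the counts hold. Of the Malat1 exon bases, 964 (13.8%) are shared with 3 genes wholly inside it. Inside the Gas5 exons lie 10 genes, among them the snoRNAs Snord47, Snord78 and Snord80. Added gene by gene, their shared bases come to 746 (19.84% of the Gas5 exon bases). That sum counts overlapping Snord80 entries separately, so the distinct share is smaller. All of these inner genes were listed at 0. Among all genes, 0 of 745 single-exon genes lying wholly inside an exon of another gene had a fragment, against 12.65% of 17372 other single-exon genes. The zeros of the Gas5 snoRNAs thus cannot be read as absence of the snoRNAs. Fragments over shared bases may be missing from the members' counts as well, while per kb levels use the full exon length.

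For Snhg1, the host without a row, the locus could be followed through the snoRNA genes in its span. RefSeq places Snhg1 at chr19:8723487-8726326 on the plus strand, and 8 snoRNA genes of the table lie inside, 7 of them with fragments. Their summed fragments were 2895, 2792 and 1110 over the G1, S and G2/M libraries, or 90.31, 77.9 and 30.61 CPM. G2/M was the low library. G2/M over G1 was -1.56 on the log2 scale (-1.66 to -1.46), 2.951-fold lower, and G2/M over S was -1.35 (-1.45 to -1.25), 2.545-fold lower. S over G1 was -0.21 (-0.29 to -0.14).

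The snoRNA genes did not all follow the sum. Gm22680 gave 1524, 1326 and 484 fragments in G1, S and G2/M, and Snord22, a box C/D snoRNA, gave 662, 406 and 207. Gm24452 went the other way, with 24, 553 and 293. Mature snoRNA and other RNA of the locus cannot be told apart in these counts, and they are no measure of spliced Snhg1.

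**Figure D4:**
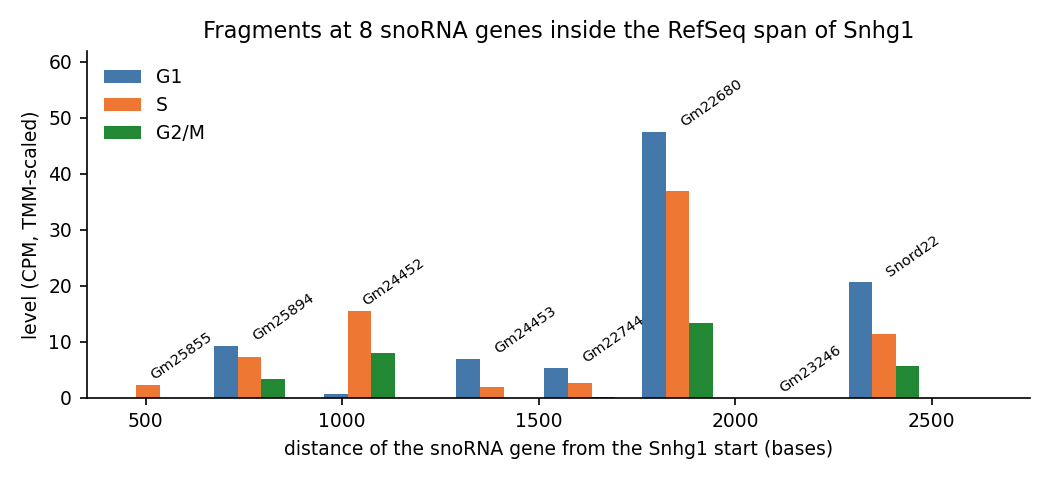
Level in TMM-scaled CPM (y axis, from 0) of 8 snoRNA genes placed by distance in bases from the annotated Snhg1 start (x axis), with a bar for each library. Gm22680 and Snord22 were highest in G1, and Gm24452 was highest in S at 15.43 CPM.

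Other snoRNA hosts were compared with Gas5 from a list of 19, of which 15 matched and 9 reached 10 CPM in G1 or S. In S over G1, 4 were higher and 5 lower, 1 of them at least 2-fold, with a median log2 ratio of -0.30 beside -0.01 for all genes. In G2/M over S, 2 of 8 were higher and 6 lower, 2 of them at least 2-fold, with a median of -0.34 beside 0.01. In G2/M over G1, 1 was higher and 8 lower, 2 of them at least 2-fold, with a median of -0.67 beside 0.00. Of all measured genes, 17.2%, 13.7% and 19.9% were 2-fold apart in these comparisons in turn. Snhg6, whose introns carry a snoRNA, stood at 59.12, 18.39 and 8.217 CPM in G1, S and G2/M, 7.195-fold lower in G2/M than in G1 (log2 -2.85, -3.03 to -2.67). Snhg14, the host of the imprinted Snord115 and Snord116 clusters, stood at 17.13, 12.19 and 4.908 CPM. Both were below 10 CPM in G2/M and passed the minimum through the other library. Snhg8 stood at 63.92, 35.07 and 35.15 CPM, and Snhg12 at 48.73, 52.62 and 28.37 CPM. Zfas1, Snhg5 and Snhg17 were the hosts nearest Gas5 in level. Their log2 ratios of G2/M over S were -0.37, -0.24 and -0.32, beside -0.37 for Gas5. In S over G1 they stood at -0.30, 0.18 and 0.23, and in G2/M over G1 at -0.67, -0.06 and -0.085.

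A run of 7 or more stood in 46.1% of start regions of cytosolic ribosomal protein genes and in 8 of 20 of hosts, but at neither Gas5 start. The ribosomal protein genes had S over G1 ratios below 0 in 82 of 82 measured cases. Of these, 6 were past 2-fold, beside 17.2% of all measured genes. The median was -0.40, beside -0.007 for all measured genes. Gas5, at 0.01, lay above the highest ratio of the ribosomal protein genes, -0.02. For G2/M over S, 63 of 80 were higher and 17 lower, 0 past 2-fold, beside 13.7% of all measured genes. The median was 0.25, beside 0.007, where Gas5 was -0.37. Of 82 measured in G2/M over G1, 67 were lower, 4 of them past 2-fold, beside 19.9% of all measured genes. The median was -0.24, beside -0.004, and Gas5 was lower too, at -0.35. No test sets Gas5 apart from these genes.

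Other long noncoding RNAs came from a list of 24, with 22 matched and 7 measured in S over G1. There 5 were higher, 3 of them at least 2-fold, and 2 lower, 1 of them at least 2-fold. The median was 0.90 beside -0.007 for all measured genes, of which 17.2% were 2-fold apart. Xist, the RNA that coats the inactive X chromosome, stood at 732.2, 1690 and 1139 CPM, 2.308-fold higher in S than in G1. Ftx, a neighbour of Xist, stood at 4.43, 13.92 and 8.603 CPM, and Mir22hg, a microRNA host, at 2.34, 13.03 and 9.568 CPM. Mir17hg, host of the miR-17-92 cluster, went the other way, at 22.49, 8.956 and 12.77 CPM. For S over G1, Ftx and Mir22hg passed the 10 CPM minimum only through S, and Mir17hg only through G1. The counts and the median therefore depend on that minimum. From S to G2/M 3 were higher and 4 lower, 0 at 2-fold, with a median of -0.35 beside 0.007. Of all measured genes, 13.7% were 2-fold apart there. Of 5 measured in G2/M over G1, 3 were higher, 1 of them past 2-fold, and 2 lower. The median was 0.57 beside -0.004 for all measured genes, of which 19.9% were 2-fold apart.

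**Figure D5:**
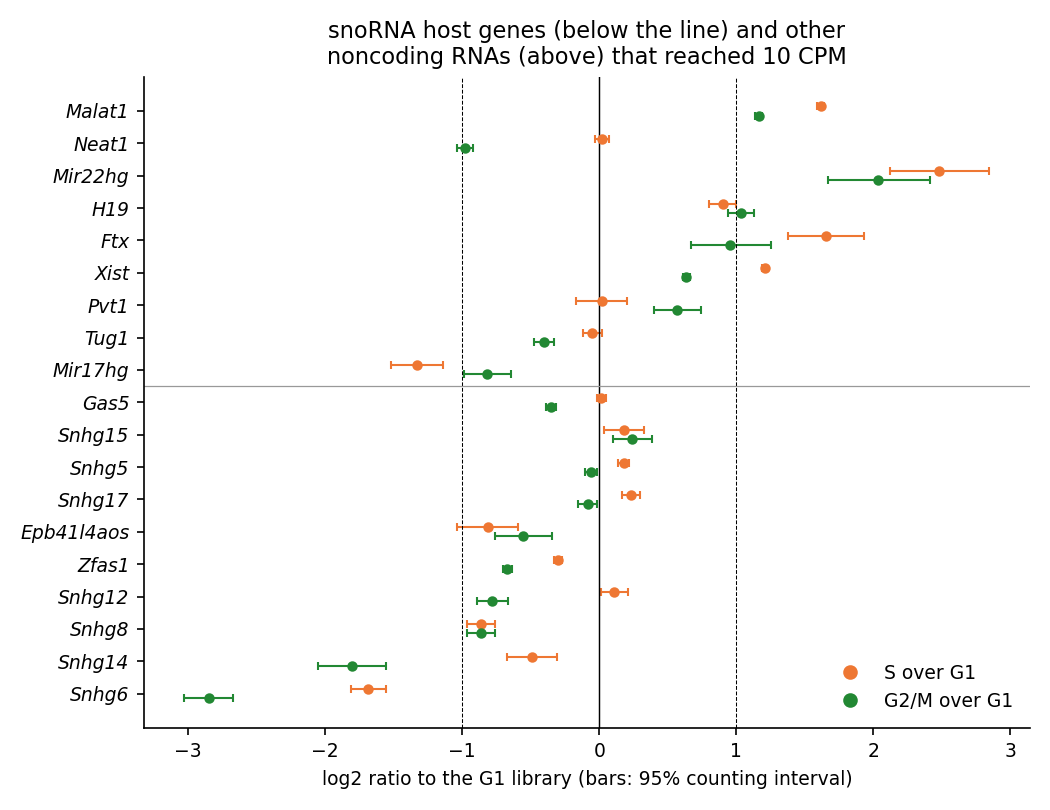
Log2 ratio to the G1 library (x axis) of snoRNA hosts and other noncoding RNAs that reached 10 CPM (y axis), for S in orange and G2/M in green, with 95% counting intervals. Dashed lines mark 2-fold. Malat1 lay right of the 2-fold line in both ratios, Gas5 between the lines, and Snhg6 left of them.

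Genes for proteins of the bodies that hold Malat1 and Neat1 were read from separate lists. Of 18 measured nuclear speckle proteins, 0 were 2-fold apart in any comparison. Their medians were 0.07 in S over G1, -0.08 in G2/M over S and 0.05 in G2/M over G1. Of all measured genes, 17.2%, 13.7% and 19.9% were 2-fold apart in these comparisons in turn. Where the mean level reached 50 CPM, the shares were 5.21%, 2.35% and 6.54%. In S over G1, 11 of the 18 were higher and 7 lower. Son, a speckle core protein, stood at 260.5, 433.4 and 363.4 CPM, and Srrm1, a splicing coactivator, at 121.2, 219.8 and 167.1 CPM. Prpf8 and Srrm2, of the same list, were highest in G2/M, at 191.0, 308.6 and 327.0 CPM and at 200.1, 286.2 and 315.0 CPM. Of 20 paraspeckle proteins, 5 were higher and 15 lower in S than in G1, 1 of the latter past 2-fold. In G2/M over S, 9 were higher and 11 lower, 0 past 2-fold. In G2/M over G1, 6 were higher and 14 lower, 2 of the latter past 2-fold. The medians were -0.07, -0.09 and -0.24 in turn. Pspc1 stood at 41.3, 60.91 and 82.58 CPM, and Rbm14, needed for paraspeckle assembly, at 45.05, 30.97 and 21.81 CPM.

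Genes that act on the members' processing were mixed. Beside the counts below, 17.2%, 13.7% and 19.9% of all measured genes were 2-fold apart in S over G1, G2/M over S and G2/M over G1. Of 8 measured genes for MALAT1 3′ end processing and stability, known mainly in human, 2 had a higher and 6 a lower level in S, compared with G1, 2 of the latter past 2-fold (median -0.34, and -0.21 from the first columns alone). Of 7 measured in G2/M over S, 6 were higher, 2 past 2-fold (median 0.56), and in G2/M over G1 5 were higher and 4 lower, 2 past 2-fold each way (median 0.11, and 0.30 from the second columns alone). Pop4 and Rpp38, both RNase P subunits, stood at 22.06, 2.65 and 9.209 CPM and at 10.64, 0.6417 and 2.123 CPM. For S over G1, Pop4, Rpp38 and Rpp40 passed the 10 CPM minimum only through G1. For both G2/M ratios, Pop5 passed only through G2/M. The counts of these processing genes therefore depend on that minimum. Of 19 nonsense-mediated decay factors, 11 had a higher level in S, compared with G1, 2 past 2-fold (median 0.13, and 0.22 from the first columns alone). Between S and G2/M, 8 were higher and 11 lower in the latter, 0 past 2-fold (median -0.03, and between -0.091 and 0.005 from single columns), and in G2/M over G1 11 were higher, 3 past 2-fold, and 8 lower (median 0.41). Upf1, the central helicase of that pathway, stood at 402.2, 273.6 and 201.4 CPM, and Smg6, its endonuclease, at 30.67, 65.06 and 83.32 CPM. Of 17 snoRNP proteins, 5 had a higher and 12 a lower level in S, compared with G1, 2 of the latter past 2-fold (median -0.27). For G2/M over S, 14 were higher, 2 past 2-fold (median 0.32), and in G2/M over G1 9 were higher, 1 past 2-fold, and 8 lower (median 0.02). Nop10, of the H/ACA complex, stood at 41.8, 18.08 and 37.25 CPM. Znhit3, at 11.73, 3.627 and 24.48 CPM, is among the genes past 2-fold in each comparison. Znhit3 and Pih1d1, the latter at 12.76, 7.868 and 15.39 CPM, were below 10 CPM in S. They passed the minimum only through G1 for S over G1, and only through G2/M for G2/M over S. The snoRNP counts with S therefore depend on that minimum too.

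Around the members, neighbouring genes were described from a list of 13, with 9 measured. In S over G1 8 of the 9 were higher, 0 past 2-fold, with a median of 0.28. From S to G2/M 8 were lower, 2 of them at least 2-fold, with a median of -0.57, where 13.7% of all measured genes were 2-fold apart. In G2/M over G1 3 were higher and 6 lower, 2 of them at least 2-fold, with a median of -0.05 (between -0.147 and -0.09 from single columns), where that share was 19.9%. Frmd8 stood at 27.76, 36.8 and 17.4 CPM. Zbtb37, which overlaps the Gas5 span on the opposite strand with 0 shared exon bases, stood at 21.84, 26.09 and 10.48 CPM. In the Kcnq1ot1 imprinted cluster 4 of 11 genes were measured and 6 were at 0 in all libraries, Kcnq1 among them. Tssc4 stood at 28.86, 15.09 and 3.198 CPM, 9.022-fold lower in G2/M than in G1. It passed the 10 CPM minimum for that ratio only through G1. Of the 4 measured, 1 was past 2-fold in G2/M over G1, beside the 19.9% of all measured genes. Cd81, a tetraspanin, stood at 294.6, 350.3 and 215.9 CPM.

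The genes with the most similar course were named by the distance between centred log2 levels over the 3 libraries, among 4233 genes whose mean level reached 50 CPM. For Malat1 they were Zbtb20 (distance 0.0426), at 47.7, 150.9 and 111.1 CPM, Cep192 (0.0884) and Crim1 (0.0948). For Neat1 they included Saraf (0.0249), at 65.51, 66.9 and 32.67 CPM, and Trpc4ap (0.0291). For Gas5 they were Sgk1 (0.0105), Polr2m (0.0107) and Ercc6l (0.011). With 3 libraries, small distances arise readily, and they describe shape alone.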

How the data were processed

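Fragments of paired reads had been assigned to exons and totalled by gene with featureCounts 1.5.0-p3 on Ensembl GRCm38, and the authors deposited these raw counts, per the file headers. Neither strand nor the handling of multimapping or overlap is set in that command, so reads of antisense partners cannot be told apart. HISAT2 2.1.0 and SAMtools 1.6 are named in the submitters' processing notes. Poly(A) selection was not stated in those sources, though the authors' name for the counts calls them mRNA-seq. Whether RNA without a poly(A) tail was kept cannot be told.

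Members and gene lists were chosen with earlier results of these data known. The columns of each phase were compared by chi-square and summed. CPM used TMM factors from edgeR 4.0.16 (R 4.3.3). With 1 library per phase the planned test was not run. Ratios have exact binomial and levels exact Poisson 95% intervals, and counts under 3 were set to 3. A gene was measured at 10 CPM in 1 of the libraries compared and counted as apart at 2-fold. From each list, 4 genes were named by rule, of which the text prints some. Zfas1, Snhg5, Snhg17 and Rpp40 were named outside that rule. Some genes that the rules name are not reported here. The method was tested on simulated data. The run length of 7 at RefSeq starts was kept after 6 had been tried. Alternatives were DESeq2 1.42.0 size factors, library size alone, other minimums and single columns.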

Additional observations from a re-analysis of the deposited data

How the results depend on the processing

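Of 72 alternative values of the members' ratios, 71 stayed within their interval. The exception was Malat1 in G2/M over G1, with a log2 ratio of 1.193 under library size alone. Neat1 in S over G1, whose interval includes 0, changed sign, to -0.012 without the first column of each phase. The count of members at least 2-fold apart in G2/M over S was 0, and 1 with mitochondrial genes and members left out of the scale. Leaving out a column gave 0 to 1. In both cases Neat1, at -0.999, crossed the 2-fold line, to -1.001 with the other scale and -1.044 without the second column of each phase. Of the list medians, 228 alternative values stayed within a tolerance that differed between lists, and 6 moved. From single columns, MALAT1 processing genes moved to 0.299 in G2/M over G1 and to 0.433 and 0.735 in G2/M over S. Also from single columns, decay factors moved to 0.22 in S over G1 and other long noncoding RNAs to 0.434 in G2/M over G1. Mitochondrial genes moved to -0.662 in G2/M over G1 under library size alone. Genes at least 2-fold apart numbered 4410, 4036 and 4519 in S over G1, G2/M over S and G2/M over G1 with no minimum, and 220, 99 and 276 with a mean of at least 50 CPM, as the minimum changes which genes are tested. The choice between runs of 6 and 7 bases changed counts of start regions from 6640 to 9847 of all, from 35 to 39 of ribosomal protein genes and from 8 to 11 of hosts, and it decides whether Gas5 is among them. No paired analysis was possible because no test was run and the columns of a phase are treated as 1 library. Depth limits Kcnq1ot1, with 25 fragments in S.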
